A study of Mus musculus with 24 samples.

Results

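Kidney was compared with liver in adult mice by sequencing of total RNA. All 5 kidney libraries and all 6 liver libraries from mice of 3 to 4 months were taken, 11 of the 24 samples of the study. The kidneys came from 3 Nudt12 knockout and 2 wild-type mice by their labels, and the livers were 3 of each genotype. Replicate 3 of the wild-type kidneys is not analysed here, and 12 livers of a time course served only as a second set of livers. Those were taken at 4 to 6 months of age every 4 h, from zeitgeber hour 0 to 20, as 6 libraries of each genotype. The knockout mice belong to a single line made by injecting Cas9 and a pair of guides into B6D2F1/J-derived embryos and crossing the founders with C57BL/6J. Their allele lacks 58 bp of exon 6 of Nudt12, a gene whose enzyme takes the NAD cap off RNA, and both organs of a knockout mouse carry it. Sex, the hour at which the 3 to 4 month organs were taken, and whether a kidney and a liver came from 1 animal are not given in the sources used here, so p-values measure the spread between these libraries.

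The kidney filters blood and then recovers nearly everything of value from the filtrate. Podocytes hold back proteins in the glomerulus, the proximal tubule takes up sugar, phosphate, amino acids and filtered protein, the loop of Henle builds the salt gradient, and the distal tubule and collecting duct set the final salt, acid and water content of urine. The liver makes most plasma proteins and bile acids, turns ammonia into urea, stores glycogen and clears drugs. Both organs make glucose, both are rich in mitochondria and peroxisomes, and both use the transcription factor HNF4, so the comparison asks which parts of this shared chemistry carry different genes in each organ.

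The kidney and liver tables were normalized separately by the authors, so the deposited values of each library were first scaled to a sum of 1000000, and all levels below are in those units, called ppm. Kidney values are listed in the order knockout 1, 2 and 3, then wild-type 1 and 2, and those of the 6 livers by their lowest, median and highest. A difference is kidney minus liver on the log2(ppm + 0.1) scale, given with ± its standard error from limma. This scale understates the difference of genes near 0, and no fold is given where an organ is listed at 0. A gene passed the test at a Benjamini-Hochberg adjusted p below 0.05, and it differed beyond 2-fold where limma's treat test against a log2 difference of 1 passed the same threshold. The 11 columns summed to between 24070000 and 27770000 before scaling. Spearman correlations over the tested genes were 0.975 to 0.983 between kidneys, 0.961 to 0.975 between livers and 0.749 to 0.774 between organs. The targeted gene followed the labels: Nudt12 stood at 10.3, 12.2 and 13.9 in the knockout kidneys and at 54.5 and 62.4 in the wild-type ones, against 8.64, 8.91 and 9.51 in the knockout livers and 50.7, 41.0 and 43.2 in the wild-type livers.

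Several kidney libraries stood apart in ways that touch the results. Wild-type kidney 1 held 16.06% of its total in mitochondrially encoded genes, ribosomal RNA included, against 7.40 to 9.54% in the other kidneys. The mitochondrial ribosomal RNA gene mt-Rnr2 alone held 9.51% there. The 13 mitochondrially encoded protein genes summed to 43420 ppm there, within the 37790 to 45400 of the other kidneys. Alb, the gene of serum albumin, was at 27.8 ppm in wild-type kidney 1 against 6.49 to 15.6. The 10 genes with the largest differences toward liver, named below, were also highest in this kidney. Among them, Serpina3k was at 9.03 against 1.1 to 2.66 and Cps1 at 2.21 against 0.325 to 0.911. Not every liver gene did so: Gc was at 23.3 there and at 22.8 to 43.9 in the other kidneys. Knockout kidney 1 held adrenal transcripts. The 10 adrenal genes, such as Star of steroid synthesis, summed to 272.5 ppm there and to between 1.025 and 1.588 in the other kidneys, where 5 to 8 of the 10 were listed at 0. Knockout kidney 3 held pancreatic transcripts, with the trypsinogen gene Prss2 at 14.1 and at 0 in the other kidneys. Among the 9 tested pancreas or muscle genes 1 passed the test between organs. Adipocyte genes were present in each kidney: Ucp1, the uncoupling protein of brown fat, was at 3.35 to 17.5 ppm in kidney and at 0 to 0.0389 in liver. The part of these traces in the organ difference was not tested. With any 1 of the 11 libraries left out, the number of genes beyond 2-fold lay between 6555 and 7103, against 7024 with all of them. It was 6750 without wild-type kidney 1, 6693 without knockout kidney 1 and 6585 without knockout kidney 3. Such totals cannot show the part of these traces. The adrenal and pancreas lists are short beside them, and adipocyte genes were present in each kidney.

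The organs differed first in how their RNA was spread over genes. In a liver, 39 to 62 genes made up 50% of the column total (median 53.5), and in a kidney 215 to 343 did (median 340). The difference of the means was 259.3 genes, with no overlap, and the exact two-sided permutation p was 0.00433, the smallest that 5 against 6 libraries allow. The 10 leading protein-coding genes took 15.91 to 19.5% of a liver and 5.11 to 5.90% of a kidney. In liver, Alb alone took 3.69% on average and Trf, which encodes the plasma iron carrier transferrin, 1.53%. In kidney the largest protein-coding nuclear share was that of Kap, an androgen-regulated gene of the proximal tubule, at 1.42%, followed by Lrp2, which encodes the endocytic receptor megalin, at 0.79%. These are shares of the column and not levels per length. The 7SL RNA held 7.79 to 9.39% of a kidney and 8.72 to 15.15% of a liver. Mitochondrially encoded genes held 7.40 to 16.06% of a kidney (median 8.64%) and 2.27 to 7.39% of a liver (median 3.28%), with an exact permutation p of 0.00433, but the time course livers ranged from 6.72 to 15.5%. These shares count mitochondrial ribosomal RNA. Its gene mt-Rnr2 held 2.64 to 9.51% of a kidney and 0.32 to 4.02% of a liver. The 13 mitochondrially encoded protein genes summed to 37790 to 45400 ppm in a kidney and 17300 to 24720 in a liver.

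**Figure D1:**
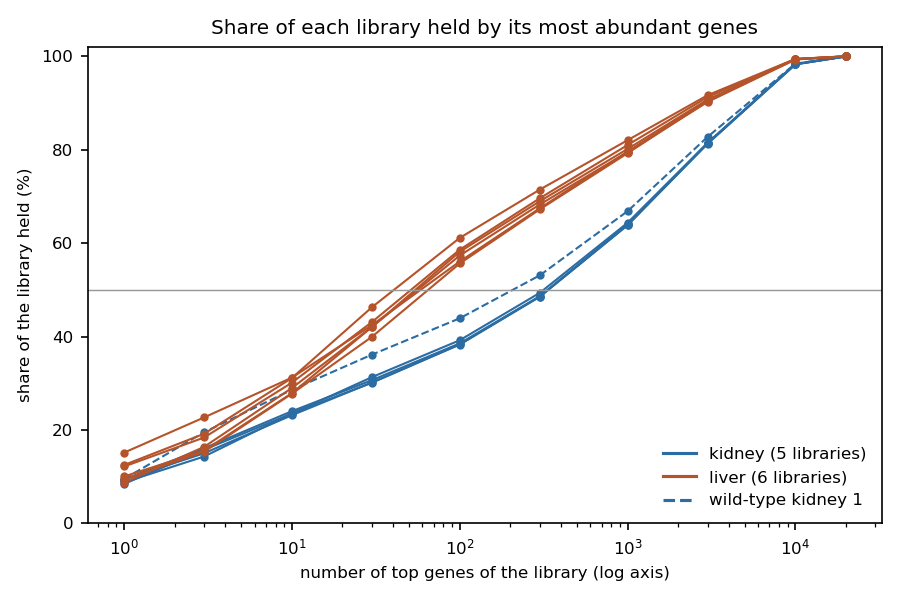
Cumulative share of each library's total (y axis, percent) held by its top genes (x axis, number of genes, log axis), 1 line for each of the 5 kidney and 6 liver libraries. Liver curves climb faster: 39 to 62 genes held 50% of a liver and 215 to 343 held 50% of a kidney, with wild-type kidney 1 (dashed) at 215.

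The level at which the organs meet depended on the scale. The part of the concentration of liver RNA in few genes was not tested. Of 50765 genes in the tables, 19251 had a mean of at least 0.1 ppm and were tested. On the per-million scale 13547 of them passed the test as higher in kidney (70.4%) and 2076 as higher in liver (10.8%), and the median gene lay 1.02 log2 units above liver in kidney. Scaled instead by the median of ratios over genes above 0 in all 11 libraries, the median gene lay at 0.09, and 32.6% of 18841 genes were higher in kidney against 26.8% in liver. Beyond 2-fold, the per-million scale gave 5875 genes higher in kidney (30.5%) and 1149 in liver (5.97%), and the median of ratios gave 14.5% and 9.63%. In 56.4% of the tested genes every kidney lay above every liver, and in 7.99% every liver lay above every kidney. A kidney excess of about 1 log2 unit is therefore the level of the median gene, and a difference reads about 1 log2 unit lower by the median of ratios. The value by the median of ratios is given where it turns the direction of a named gene and beside list counts that it moves strongly. Of the 6909 genes beyond 2-fold that both scales tested, 3875 kept that call under the median of ratios and none changed sign.

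**Figure D2:**
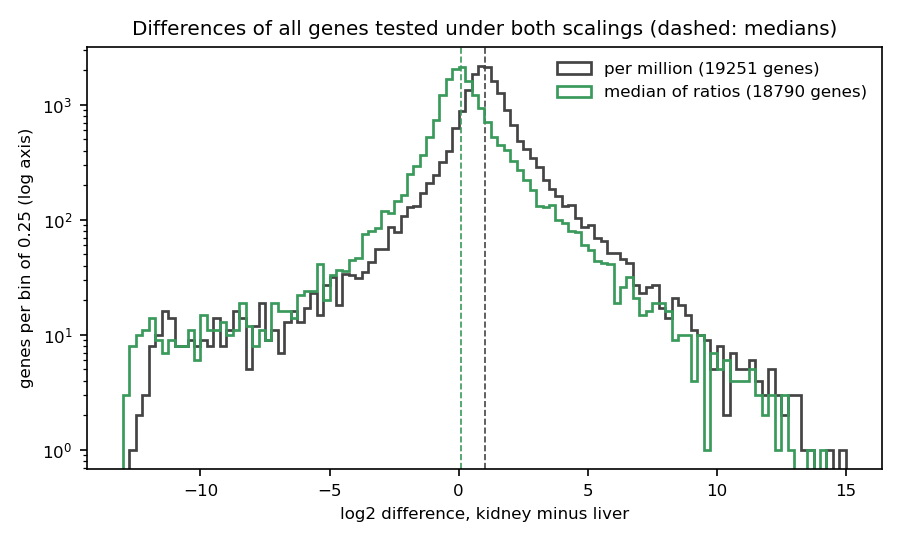
Histogram of the log2 difference kidney minus liver (x axis) of the tested genes, as genes per bin of 0.25 (y axis, log axis), on the per-million scale and by the median of ratios. The dashed lines mark the medians, at log2 differences of 1.02 on the per-million scale and 0.09 by the median of ratios, and both tails reach beyond 12 log2 units.

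Among genes of at least 100 ppm in the higher organ, the 10 largest differences toward kidney were of genes known from kidney tubules. Kap led with 14.92 ± 0.28, at 14200, 11900, 14900, 12400 and 17400 ppm in the kidneys and at 0.144, 0.332 and 0.831 in the livers. Slc34a1, the sodium-phosphate cotransporter of the proximal tubule, followed with 14.31 ± 0.26 and Umod, which encodes uromodulin of the thick ascending limb, with 13.73 ± 0.44. The others were the brush border protease gene Mep1a, the urate transporter gene Slc22a12, Cubn, Slc12a1, Ggt1, Slc7a13 and Cltrn (collectrin, a partner of amino acid transporters), between 12.80 and 13.30. Toward liver the 10 largest were Cps1, Serpina3k, Ahsg, Mup15, Mup16, Hpx, Gm21320, Mup7, Mat1a and Mug1, from -12.54 to -11.85. Apart from the first step of the urea cycle (Cps1) and the making of S-adenosylmethionine (Mat1a), most of these encode plasma or urinary proteins. Mup genes are near-identical copies among which reads can be split, so their single values are uncertain. All 21 tested Mup genes were higher in liver beyond 2-fold, with a median difference of -11.26. Genes above 0 in every kidney and at 0 in every liver numbered 733, and the converse held for 126.

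Genes of the proximal tubule had large differences toward kidney. In whole-organ RNA, more cells of a type cannot be told apart from more RNA in each of them. All 6 genes of the endocytic receptor machinery were higher in kidney beyond 2-fold. Lrp2, the megalin gene, stood at 7660, 7980, 8120, 7100 and 8650 ppm in the kidneys and at 1.18, 3.15 and 3.46 in the livers, a difference of 11.58 ± 0.22. Cubn, which encodes megalin's partner cubilin, was at 928 to 1120 in the kidneys and at 0 in 4 of the 6 livers. Dab2, the adaptor of this receptor pair, differed by 5.37 ± 0.28, the endosomal chloride transporter gene Clcn5 by 4.67 ± 0.23 and the lipid phosphatase gene Ocrl by 1.71 ± 0.18.

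Of 24 apical transporter genes, 22 were higher in kidney beyond 2-fold and none in liver, with a median difference of 10.11 (9.34 by the median of ratios). Slc5a2, the glucose transporter SGLT2, stood at 479, 545, 504, 497 and 449 ppm in the kidneys, and at 0 in the median liver. Slc22a12 for urate differed by 13.22 ± 0.27, Slc6a19 for neutral amino acids by 11.66 ± 0.33, Slc7a13 for acidic amino acids by 12.82 ± 0.17 and Slc13a1 for sulfate by 10.35 ± 0.23. In liver these genes sat at the edge of detection. Outside the count were a pair of transporters with high levels in both organs. Slc20a2, a phosphate transporter of many tissues, averaged 31.3 ppm in kidney and 34.7 in liver, and Slc26a1, a sulfate and oxalate exchanger, 213 and 146. By the median of ratios both were higher in liver (-1.14 and -0.48). On the basolateral side, 13 of 16 genes were higher in kidney beyond 2-fold, with a median of 4.86, and by the median of ratios 13 were higher in kidney and 2 in liver. Slc22a6, the organic anion transporter OAT1, was at 679 to 941 in kidney and at 0 to 0.117 in liver. The glucose carrier gene Slc2a2 averaged 224 in kidney and 299 in liver, and the urate carrier gene Slc2a9 differed by -1.02 ± 0.18 toward liver. Of 18 brush border and cytosolic enzyme genes, 15 were higher in kidney beyond 2-fold. Miox, the enzyme that opens the inositol ring, was at 793 to 1050 in kidney and at 0.042 to 0.177 in liver, and Ggt1, which cuts glutathione, differed by 12.85 ± 0.17.

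Past the proximal tubule nearly every segment marker was higher in kidney. All 14 thick ascending limb genes were, with a median of 9.21 (8.45 by the median of ratios). Umod stood at 3200, 3320, 2730, 1840 and 3830 ppm, and Slc12a1, the furosemide-sensitive cotransporter NKCC2, at 1290, 1060, 1140, 1070 and 1090. The livers did not exceed 0.784 for Umod and 0.0767 for Slc12a1, and 5 of the 14 genes, among them Bsnd, which encodes a chloride channel subunit, were listed at 0 in all 6 livers. The list for the distal convoluted tubule and the connecting tubule held 15 genes, all higher too (median 6.56). Slc12a3, the thiazide-sensitive cotransporter, was at 421 to 580 in kidney and 0.0367 to 0.311 in liver, and Calb1, the calcium buffer calbindin, at 283 to 425 and 0 to 0.118. In the kinase pathway that sets this cotransporter, Wnk4 differed by 5.53 ± 0.36, Stk39 by 4.07 ± 0.30, Wnk1 by 3.12 ± 0.19 and Klhl3 by 2.87 ± 0.12, all smaller values than that of the transporter gene itself.

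Of 13 principal cell genes, 12 were higher in kidney beyond 2-fold. Aqp2, the vasopressin-regulated water channel, stood at 45.5, 45.6, 61.1, 63.1 and 66.3 ppm and the vasopressin receptor gene Avpr2 at 13.2, 16.6, 10.1, 12.3 and 15.7, and both were listed at 0 in all 6 livers. The gene of the aldosterone receptor, Nr3c2, gave 0.42 ± 0.17 on the per-million scale and -0.57, toward liver, by the median of ratios. Hsd11b2, the enzyme that shields this receptor from cortisol, was at 0 in all livers and averaged 28.1 in kidney. Of 15 intercalated cell genes, 13 were higher in kidney beyond 2-fold: Rhcg, an ammonia channel, was at 59.0 to 68.8 in kidney and at 0 in all livers, and Slc26a4, the bicarbonate exchanger pendrin, at 58.2 to 73.9 against 0.0902 to 1.33. The receptor tyrosine kinase gene Kit did not pass the test (0.79 ± 0.44, and -0.18 by the median of ratios). Of 27 subunit genes of the V-ATPase and of the sodium pump with their accessory proteins, 24 were higher in kidney beyond 2-fold and 1 in liver (13 and 1 by the median of ratios). The renal isoform genes Atp6v0a4, Atp6v1b1 and Atp6v1g3 differed by 9.04 ± 0.54, 8.77 ± 0.17 and 8.22 ± 0.17, while the widely used subunit genes Atp6v1d, Atp6v1e1, Atp6v1f and Atp6v1g1 lay between 1.88 and 2.03. The sodium pump gene Atp1b1 differed by 5.16 ± 0.13, and Fxyd2, a renal modulator of the pump, by 12.42 ± 0.45. Fxyd1, a modulator known from heart and muscle, was the exception and was higher in liver (-4.32 ± 0.18).

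The glomerulus was visible at lower levels. Of 13 podocyte genes, 11 were higher in kidney beyond 2-fold. Nphs1, the slit diaphragm protein nephrin, stood at 14.2 to 17.1 ppm in the kidneys, and the livers held at most 0.0874. Ren1, renin of the juxtaglomerular cells, was at 50, 62.3, 78.6, 45.0 and 23.6 in kidney and at 0 to 0.317 in liver, a difference of 8.22 ± 0.41.

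**Figure D3:**
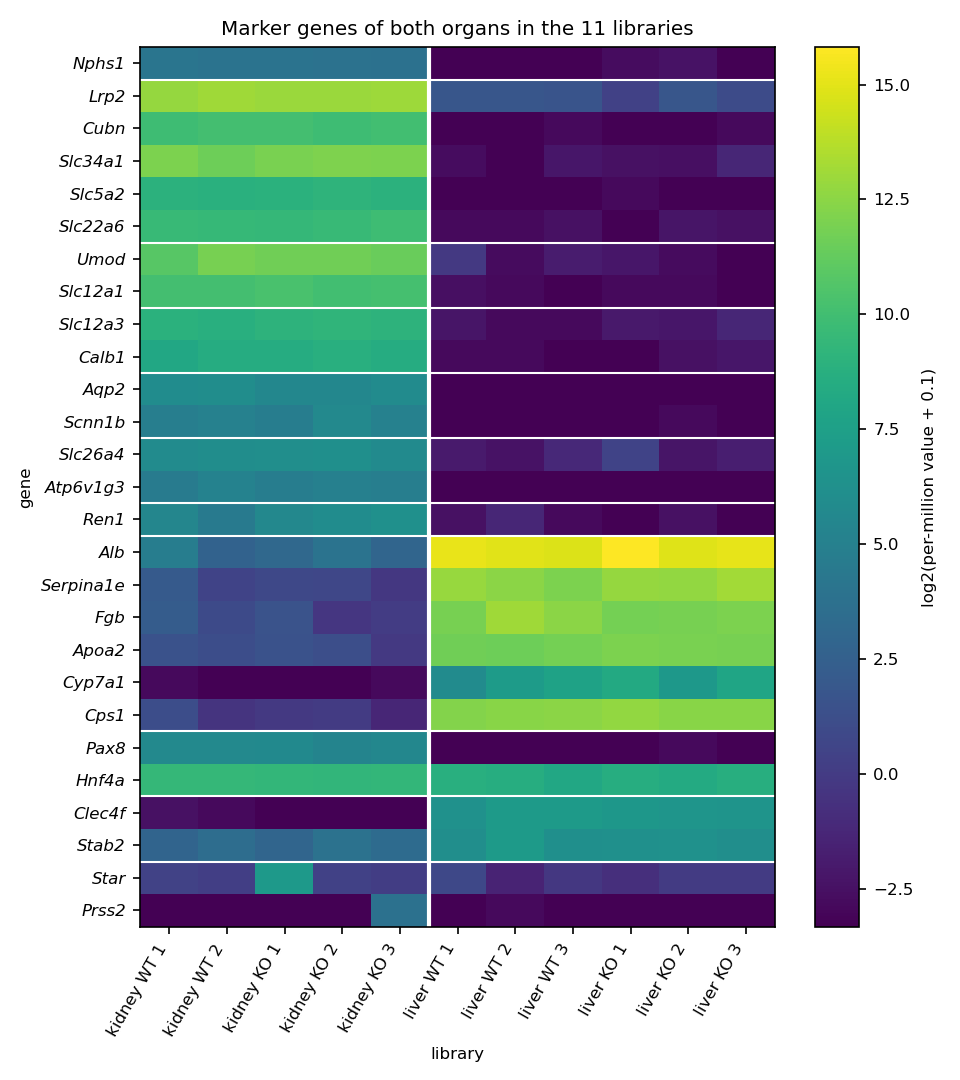
Levels of 27 marker genes (y axis, in blocks from glomerulus to collecting duct, then hepatocyte, transcription factor and other cell type genes) in each of the 5 kidney and 6 liver libraries (x axis), coloured by log2(ppm + 0.1). Nephron genes are high in all 5 kidneys and hepatocyte genes in all 6 livers, and the adrenal gene Star stands out only in knockout kidney 1, at 122 ppm.

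Transcription factors divided into kidney-bound, liver-bound and shared. Of 23 tested factors of the nephron lineage, 22 were higher in kidney beyond 2-fold, and 10 were listed at 0 in all 6 livers, among them Pax2, Lhx1, Sim1, Pou3f3 and Tfap2b. Pax8, a renal and thyroid factor, stood at 54.7, 38.7, 45.8, 52.2 and 51.1 ppm in kidney and at 0 in the median liver. Hox genes, which record position along the body axis, lay on the kidney side together. Of 38 genes with a row 30 were tested, all 30 were higher in kidney (29 beyond 2-fold), and 14 were at 0 in all livers. Hoxd8 was at 56.3 to 74.9 in kidney and 0 to 0.453 in liver, and Hoxa9 at 29.0 to 40.6 and 0 in all livers. The other 8, among them the terminal genes Hoxa13, Hoxb13, Hoxc13 and Hoxd13, fell below the filter on low values. With a pseudocount of 1 in place of 0.1, the median difference of the Hox genes was 1.97 in place of 4.24, and that of the nephron factors 3.47 in place of 5.53.

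Of 24 factors known from hepatocytes, 15 were higher in liver beyond 2-fold and 1 in kidney (20 and 0 by the median of ratios). Foxa3 stood at 26.1, 38.8 and 47.1 ppm in the livers and at 0 to 0.105 in the kidneys (-8.04 ± 0.19), and Foxa2 at 5.42 to 16.1 and 0 to 0.0424. Onecut1 was at 6.16 to 32.4 in liver and at 0 in all kidneys. Creb3l3 (-8.84 ± 0.38), the nuclear receptor genes Nr1i3 (-8.46 ± 0.34) and Nr5a2 (-6.38 ± 0.27), and Gata4 (-6.09 ± 0.33) followed. Some factors named for the liver were present in both organs. Hnf4a was at 649, 623, 642, 691 and 701 in kidney and at 292, 386 and 436 in liver, which is 0.85 ± 0.11 on the per-million scale and -0.14, not passing the test, by the median of ratios. Nr1h4, the bile acid receptor FXR, gave 0.68 ± 0.12 and -0.31. The sister gene of Hnf4a, Hnf4g, differed by 5.22 ± 0.28 toward kidney.

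Since both organs carried Hnf4a, promoters were searched for one plain form of the HNF4 binding motif, CAAAGTCCA, on both strands in the 250 bases before each RefSeq start. This form lay in 126 of 32851 such windows (0.384%). Tested genes were counted once each if any of their starts held the form, so their shares are not per window. It lay in 70 of 13000 tested genes with a promoter (0.538%). Of these genes, 772 were higher in liver beyond 2-fold, and 18 held it (2.33%). For kidney 21 of 4190 did (0.501%), and for the rest 31 of 8038 (0.386%). With the median of ratios the shares were 1.6% for liver, 0.62% for kidney and 0.385% for the rest. These are counts without a test. Of 882 listed genes with a promoter, 10 held the form, 4 of them higher in liver and 2 in kidney beyond 2-fold. The windows of 4 of these are shown, chosen after their values were seen, because they span the range of the organ difference (RefSeq, GRCm38.p6, 250 bases ending at the base before the start, 5′ to 3′ on the gene's strand, the motif or its reverse complement TGGACTTTG in capitals). Cyp8b1, an enzyme of cholic acid synthesis (chr9:121916306-121916555, minus strand), and Cyp3a11, a drug-metabolizing enzyme with close copies (chr5:145879855-145880104, minus), are liver genes, with the motif from base 67 and base 109 before the start. Aadat, a transaminase of the kynurenine route (chr8:60505874-60506123, plus, base 72, reverse complement), did not pass the 2-fold test. Treh, the brush border enzyme trehalase (chr9:44672983-44673232, plus, base 71, reverse complement), is a kidney gene.
Cyp8b1: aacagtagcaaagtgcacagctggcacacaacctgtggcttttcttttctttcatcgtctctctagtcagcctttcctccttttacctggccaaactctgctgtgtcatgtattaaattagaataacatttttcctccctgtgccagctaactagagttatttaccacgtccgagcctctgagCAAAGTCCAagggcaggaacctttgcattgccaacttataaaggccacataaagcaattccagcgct
Cyp3a11: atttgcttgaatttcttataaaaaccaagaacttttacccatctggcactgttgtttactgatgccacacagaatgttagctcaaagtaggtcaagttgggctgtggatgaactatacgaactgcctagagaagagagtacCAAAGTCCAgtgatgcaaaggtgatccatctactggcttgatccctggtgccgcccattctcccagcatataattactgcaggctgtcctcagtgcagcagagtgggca
Aadat: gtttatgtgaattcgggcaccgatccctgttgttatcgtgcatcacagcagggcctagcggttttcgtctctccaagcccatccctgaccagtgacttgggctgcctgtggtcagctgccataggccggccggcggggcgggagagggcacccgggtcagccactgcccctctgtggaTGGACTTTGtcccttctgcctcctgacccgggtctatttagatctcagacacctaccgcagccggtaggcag
Treh: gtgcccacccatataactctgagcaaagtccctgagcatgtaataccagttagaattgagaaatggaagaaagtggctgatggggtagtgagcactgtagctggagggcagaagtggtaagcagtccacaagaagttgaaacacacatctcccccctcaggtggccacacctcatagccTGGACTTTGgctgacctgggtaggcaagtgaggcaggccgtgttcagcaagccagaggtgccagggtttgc
Beside these windows, Cyp8b1 differed by -10.18 ± 0.36, Cyp3a11 by -11.80 ± 0.51, Aadat by 1.02 ± 0.21 and Treh by 6.03 ± 0.17. The same letters thus stand in promoters of genes on both sides of the comparison, and a match shows letters, not binding.

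The liver side was led by secreted plasma proteins. Of 40 hepatocyte secretory genes, 36 were higher in liver beyond 2-fold and none in kidney, with a median of -8.35 (-9.07 by the median of ratios), and the list summed to between 130800 and 167500 ppm in a liver and between 2636 and 3276 in a kidney. Alb stood at 28800, 34000 and 57700 in the livers and at 8.94, 15.6, 7.35, 27.8 and 6.49 in the kidneys. Hpx, the heme carrier hemopexin, differed by -12.17 ± 0.34, Ahsg, fetuin-A, by -12.27 ± 0.36 and Gc, the vitamin D carrier, by -7.33 ± 0.13. Selenop, the selenium carrier, was closer: it averaged 4269 in liver and 2314 in kidney (-0.90 ± 0.10). At 1980 to 2710 ppm, Selenop made up most of the list's sum in each kidney. Of 20 acute-phase genes, 17 were higher in liver beyond 2-fold. The serum amyloid gene Saa1 varied between livers, at 403, 2380 and 351 in the wild-type livers and at 23.9 to 47.3 in the knockout livers, and its near-identical neighbour Saa2 can share its reads.

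Lipoprotein genes followed with 19 of 21 higher in liver beyond 2-fold (median -6.76). Apoa1, the core protein of HDL, was at 2080 to 4000 in liver and 0.266 to 2.92 in kidney, and Apob, the core protein of LDL, at 8270, 10800 and 13100 in the livers and at 567, 497, 453, 392 and 604 in the kidneys, so kidney kept a clear level of Apob (-4.43 ± 0.15). Mttp, which loads lipid onto it, kept 34.6 ppm on average in kidney against 296 in liver. The exception was Lpl, the lipase that takes fatty acids from lipoproteins, which was higher in kidney (4.72 ± 0.20). In coagulation, 19 of 28 genes were higher in liver (67.9%) and 4 in kidney (14.3%) beyond 2-fold. These shares were 5.97% and 30.5% over all tested genes, and by the median of ratios the list counts were 22 and 3. The liver genes included clotting factors, such as prothrombin F2 (-11.12 ± 0.24), F9 (-9.89 ± 0.13) and the fibrinogen chain gene Fgb (-11.21 ± 0.35), and also inhibitors of clotting and genes of clot breakdown. The 4 kidney genes were the plasminogen activators Plau (8.72 ± 0.17) and Plat (6.44 ± 0.20), tissue factor F3 (1.94 ± 0.24) and thrombomodulin Thbd (2.58 ± 0.18), which act at vessel walls or in tubular fluid. Of 29 complement genes, 24 were higher in liver beyond 2-fold, C3 among them at 3380 to 11900 against 35.1 to 50.3 in kidney. Kidney still held Cfb, a protease of the alternative pathway, at a mean level of 483 ppm against 1309 in liver.

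Of 27 bile acid genes, 17 were higher in liver (63%) and 5 in kidney (18.5%) beyond 2-fold. The counts by the median of ratios were 20 and 3. The kidney share lay below the 30.5% of all tested genes and the liver share above their 5.97%. Cyp7a1, the rate-limiting enzyme of bile acid synthesis, was at 61.3, 176 and 308 ppm in liver and at 0 in 3 of the 5 kidneys, with 0.0385 and 0.0407 in the others. The export pump gene Abcb11 differed by -11.51 ± 0.34 and the uptake carrier gene Slc10a1 by -9.01 ± 0.12. The 5 kidney genes included the reabsorption carrier gene Slc10a2 (1.69 ± 0.19) and both chains of the basolateral exporter: Slc51b differed by 5.53 ± 0.36, and Slc51a was at 64.1 to 88.5 in kidney and at 0 in all livers. The others were Abcc4, an efflux pump, and Amacr, a racemase of side-chain synthesis (1.20 ± 0.08, and 0.21, not passing the test, by the median of ratios).

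In the urea cycle and its surroundings, 7 of 22 genes were higher in liver (31.8%) and 6 in kidney (27.3%) beyond 2-fold. The shares of all tested genes were 5.97% and 30.5%. By the median of ratios the counts were 13 and 5. Cps1, which captures ammonia, was at 4870 to 6600 ppm in liver and 0.325 to 2.21 in kidney, Otc at 303 to 468 and 0 to 0.731, and Arg1, which releases urea, at 645 to 1040 and 0.0702 to 0.541. The 2 middle steps, which also make arginine from citrulline, were strong in both organs. Ass1 stood at 2180, 2190, 2150, 2120 and 1690 in the kidneys and at 1400, 1610 and 1770 in the livers (0.36 ± 0.10, and -0.63 by the median of ratios), and Asl averaged 175 and 305. Gls2, the liver-type glutaminase, was at 0.0699 to 0.354 in kidney and 183 to 294 in liver. The urea transporter gene Slc14a2 was at 0 in all livers and averaged 20.8 in kidney.

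Core genes of glucose production were strong in both organs. Of 20 genes, 5 were higher in kidney (25%) and 4 in liver (20%) beyond 2-fold, against 30.5% and 5.97% of all tested genes. Pck1, which commits carbon to glucose, stood at 2190, 1830, 2120, 1360 and 2060 ppm in the kidneys and at 1440, 1860 and 2310 in the livers, a difference of 0.07 ± 0.16 that did not pass the test. G6pc (0.39 ± 0.32) and Fbp1 (0.27 ± 0.12) did not pass it either, but by the median of ratios Pck1 (-0.92) and Fbp1 (-0.72) were higher in liver, and G6pc (-0.60) did not pass. Genes that feed the pathway differed. The transaminase genes Gpt (-3.23 ± 0.17) and Tat (-11.62 ± 0.33) and the serine dehydratase gene Sds, at 0 in all kidneys, were liver genes. Ldhb, the lactate dehydrogenase chain of lactate-using tissues, was at 718 to 798 in kidney and at 0.64 to 1.81 in liver (8.97 ± 0.19), and Ppargc1a, a coactivator of mitochondrial genes, differed by 3.83 ± 0.20.

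Pairs of related genes for the same step were compared next. Of 28 pairs of a gene known from liver and a gene known from kidney or many tissues, 16 had the first higher in liver and the second higher in kidney, both beyond 2-fold (14 by the median of ratios). The direction of most pairs is textbook knowledge and was known when they were listed. Pklr, the liver pyruvate kinase, differed by -2.47 ± 0.26 and Pkm by 3.84 ± 0.12, and Gys2, the liver glycogen synthase, by -2.69 ± 0.30 and Gys1 by 4.30 ± 0.30. Levels were not mirror images: Pklr stood at 15.7 to 22.6 in kidney and 56.7 to 288 in liver, whereas Pkm stood at 224 to 263 and 13.5 to 21.1. Hao1 and Hao2, oxidases of hydroxy acids in the peroxisome, parted completely, with -10.84 ± 0.17 and 10.77 ± 0.38. In 2 pairs both genes were higher in kidney beyond 2-fold, and in 9 at least 1 gene was not beyond 2-fold in either direction. In 1 pair, the amino acid carriers Slc38a4 (-7.52 ± 0.16) and Slc38a3 (-4.32 ± 0.19), both genes were higher in liver beyond 2-fold.

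**Figure D4:**
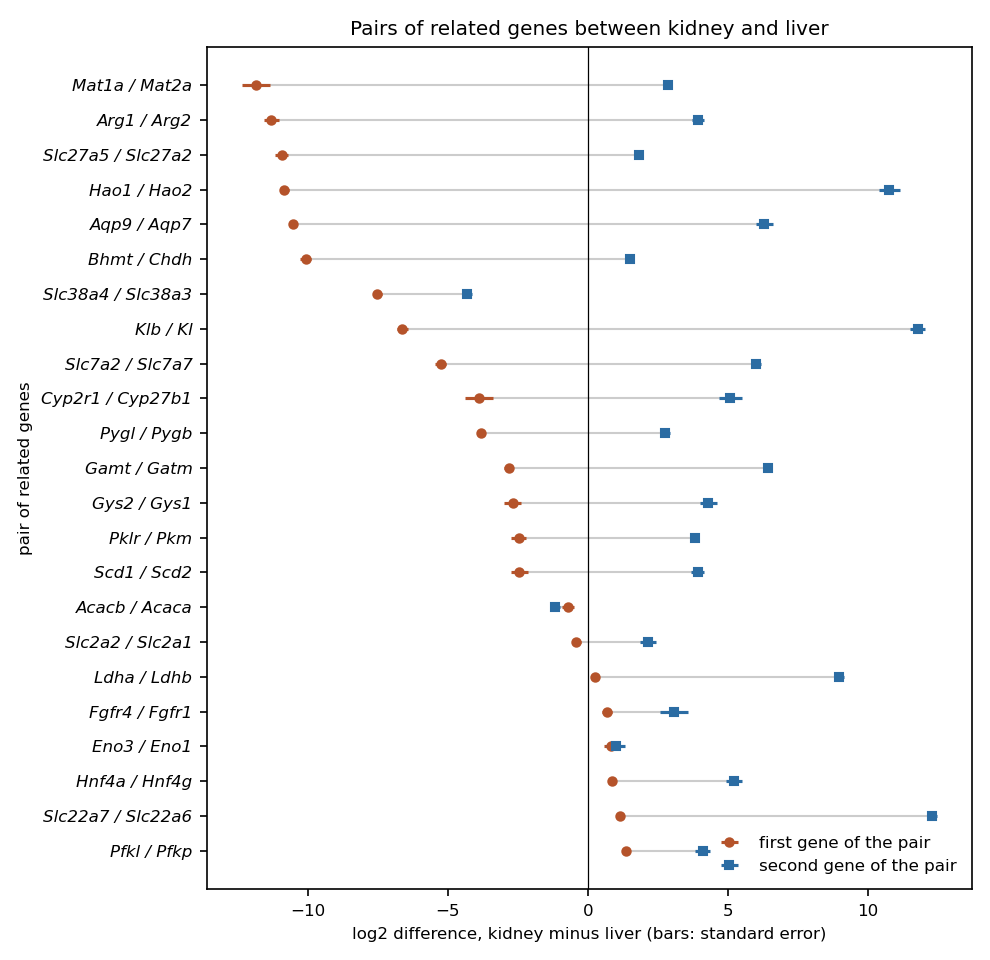
Log2 difference kidney minus liver (x axis, ± SE) of 23 of the 28 pairs of related genes (y axis), with the gene known from liver as a circle and its counterpart as a square. In 14 of the plotted pairs the circle lies beyond 2-fold on the liver side and the square beyond 2-fold on the kidney side, and Hao1 and Hao2 lie at -10.84 and 10.77.

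Oxct1, which is needed to burn ketone bodies, was at 1500, 1590, 1450, 1320 and 1640 ppm in the kidneys and at 3.01, 4.55 and 8.26 in the livers (8.26 ± 0.20), with no overlap. Of 9 ketone body genes, 2 were higher in kidney (22.2%) and 1 in liver (11.1%) beyond 2-fold. The shares of all tested genes were 30.5% and 5.97%. In the citric acid cycle with pyruvate entry, 14 of 23 genes were higher in kidney beyond 2-fold (60.9%) and none in liver, with a median of 1.46. The median was 0.47 by the median of ratios, where 3 kept that call, which 14.5% of all tested genes had there. Idh2 (2.64 ± 0.13) and Idh3g (2.43 ± 0.14) were among the 14. Fh1 did not pass the test (0.07 ± 0.16) and was higher in liver by the median of ratios (-0.92). Nuclear genes of the respiratory chain stayed at the level of the median gene: 52 of 53 passed the test toward kidney, with a median of 1.07, but by the median of ratios the median was 0.08 and 14 were higher in kidney and 2 in liver. Cycs, cytochrome c, stood above that level with 2.00 ± 0.14, at 114 to 171 in kidney and 25.2 to 40.4 in liver. All 13 mitochondrially encoded protein genes passed toward kidney (median 1.57, and 4 of them by the median of ratios). The number beyond 2-fold ranged from 2 to 8 when 1 library was left out.

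Of 29 fatty acid oxidation genes, 7 were higher in kidney (24.1%) and 1 in liver (3.45%) beyond 2-fold on the per-million scale. Both shares lay below the 30.5% and 5.97% of all tested genes. By the median of ratios the counts were 4 and 8, where 14.5% and 9.63% of all tested genes had these calls. Acadm, the medium-chain dehydrogenase, was higher in kidney on both scales (2.00 ± 0.14 and 1.01), and Acaa2, the last step of the mitochondrial spiral, was higher in liver (-2.19 ± 0.18). Of 32 genes that make fat and sterol, 12 were higher in liver (37.5%) and 1 in kidney (3.12%) beyond 2-fold. The counts by the median of ratios were 22 and 1. Elovl3, a fatty acid elongase, differed by -9.65 ± 0.39, Thrsp, a partner of lipid synthesis, by -4.66 ± 0.35, Fdps of the sterol pathway by -3.67 ± 0.25 and Scd1, the main hepatic desaturase, by -2.45 ± 0.31. The kidney gene was Scd2 (3.92 ± 0.22), the desaturase of other tissues.

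Peroxisomes were present in both organs but carried different oxidases. Of 32 genes, 7 were higher in kidney (21.9%) and 6 in liver (18.8%) beyond 2-fold, against 30.5% and 5.97% of all tested genes. By the median of ratios the counts were 3 and 9. The listed Pex genes that build the organelle, other than Pex10 (1.63), lay between -0.73 (Pex16) and 0.54 (Pex3). By the median of ratios Pex16 was at -1.72 and Pex3 at -0.45. Dao, D-amino acid oxidase, stood at 247, 244, 275, 216 and 235 ppm in kidney and at 0 in the median liver, with 0.0598 as the highest. Uox, urate oxidase, was at 992, 1560 and 2220 in the livers and at 0.185 to 0.803 in the kidneys, and Agxt, which removes glyoxylate, differed by -10.34 ± 0.22. Agps of ether lipid synthesis was higher in kidney (4.90 ± 0.16).

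Of 36 cytochrome P450 genes of drug and fatty acid metabolism, 25 were higher in liver (69.4%) and 4 in kidney (11.1%) beyond 2-fold. These shares were 5.97% and 30.5% over all tested genes, and by the median of ratios the list counts were 27 and 3. Cyp3a11 stood at 1240, 3970 and 7510 ppm in the livers and at 0.285 to 3.07 in the kidneys, and Cyp1a2 differed by -10.76 ± 0.40. The kidney genes were Cyp4b1, at 2440 to 3140 in kidney and 11.7 to 19.7 in liver, with Cyp2j13 (11.26 ± 0.28), Cyp4a31 (6.73 ± 0.46) and Cyp2j5 (1.45 ± 0.10). Members of the Cyp2c, Cyp2d, Cyp3a and Cyp4a clusters are alike in sequence, so reads can be split between them. Of 51 conjugation genes, 21 were higher in liver (41.2%) and 16 in kidney (31.4%) beyond 2-fold, against 5.97% and 30.5% of all tested genes, and by the median of ratios the counts were 27 and 11. Glutathione transferases parted into Gstp1 (-3.63 ± 0.14) and Gsta3 (-3.61 ± 0.12) for liver and Gstm5 (3.89 ± 0.19) for kidney. Glucuronosyltransferases parted into Ugt2b1 (-11.24 ± 0.41) for liver and Ugt2b38 (5.34 ± 0.41) for kidney. Ugt8a, a gene of the wider family whose enzyme transfers galactose, was also higher in kidney (8.63 ± 0.18). Within the Ugt1a locus, whose transcripts share their last exons and therefore reads, Ugt1a1 fell on the liver side (-7.36 ± 0.16) and Ugt1a7c on the kidney side (5.89 ± 0.16).

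Hormone systems had members on both sides. Of 18 tested angiotensin and kinin genes, 10 were higher in kidney (55.6%) and 4 in liver (22.2%) beyond 2-fold. The shares of all tested genes were 30.5% and 5.97%, and by the median of ratios the list counts were 8 and 4. Agt, the precursor angiotensinogen, was at 250, 286 and 366 ppm in the livers and at 41.4, 40.3, 37.8, 35.9 and 45.6 in the kidneys (-2.87 ± 0.11). The enzymes that process it were kidney genes, with Ren1 at 8.22 ± 0.41 and Ace at 7.98 ± 0.42, and the receptor gene Agtr1a did not pass the test (0.19 ± 0.10) but was higher in liver by the median of ratios (-0.80). Of the kinin genes, the precursor gene Kng1 was higher in liver (-9.46 ± 0.13) and the tissue kallikrein gene Klk1 in kidney (12.20 ± 0.21), a member of a family of close copies. Of 17 genes of vitamin D and klotho signalling, 9 were higher in kidney (52.9%) and 4 in liver (23.5%) beyond 2-fold. The counts by the median of ratios were 8 and 6. The first hydroxylase, Cyp2r1, was at 7.38, 9.18 and 12.8 in liver and 0.0552 to 1.32 in kidney. Cyp27b1, which makes the active hormone, stood at 2.22, 6.16, 5.93, 6.89 and 1.87 in the kidneys and at 0 in the median liver. Cyp24a1, which destroys it, was at 30.2, 200, 129, 157 and 19.5 and at 0 in all livers, so knockout kidney 1 and wild-type kidney 2 were low for both enzymes. Kl, the coreceptor for FGF23, was at 492 to 570 in kidney and 0 to 0.228 in liver, and Klb, the coreceptor for FGF21 and the intestinal FGF, at 0.217 to 0.472 and 31.4 to 54.8.

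Of 20 tested hormone and growth genes, 4 were higher in kidney (20%) and 8 in liver (40%) beyond 2-fold. The shares of all tested genes were 30.5% and 5.97%, and by the median of ratios the list counts were 2 and 9. In the growth hormone axis the ligand and the receptor lay apart. Igf1 was at 194, 304 and 378 ppm in the livers and at 11.4, 14.7, 11.9, 13.2 and 7.26 in the kidneys, while Igf1r was at 145 to 209 in kidney and 1.45 to 4.61 in liver (6.24 ± 0.25). Ghr, the receptor upstream, stood at 667 to 761 in kidney and 323 to 506 in liver, a difference of 0.74 ± 0.10 on the per-million scale and of -0.26 by the median of ratios. Creatine synthesis also divided: Gatm, the first enzyme, was at 626 to 802 in kidney and 5.45 to 11.3 in liver, and Gamt, the second, at 8.9 to 12.7 and 48.2 to 111. In betaine use, Chdh, which makes it, was higher in kidney (1.52 ± 0.09), and Bhmt, which spends it, stood at 3970 to 8410 in liver against 2.80 to 7.19 in kidney. Of 22 creatine and osmolyte genes, 10 were higher in kidney (45.5%) and 6 in liver (27.3%) beyond 2-fold. The counts by the median of ratios were 7 and 9. The inositol carrier gene Slc5a3 (4.80 ± 0.22), the aldose reductase gene Akr1b3 (3.56 ± 0.19) and Nfat5, the factor that responds to salt (2.14 ± 0.35), were among the kidney genes. Of the genes that start the use of an amino acid, Tdo2 for tryptophan (-11.70 ± 0.42), Hal for histidine (-10.68 ± 0.42) and Mat1a for methionine (-11.85 ± 0.51) were higher in liver, whereas Mat2a, which carries out the same step as Mat1a, was higher in kidney (2.86 ± 0.14). Phgdh (6.52 ± 0.47) and Psat1 (6.13 ± 0.36) of serine synthesis were also higher in kidney. Of 31 listed genes around serine and glycine, 6 were higher in kidney (19.4%) and 9 in liver (29%) beyond 2-fold. The counts by the median of ratios were 4 and 13.

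Genes around NAD and RNA caps, the subject of the knockout, differed between organs in a few members. Of 32 tested genes of NAD synthesis and use, 6 were higher in each organ beyond 2-fold (18.8% each). Of all tested genes, 30.5% were higher in kidney and 5.97% in liver. By the median of ratios, 12 NAD genes were higher in liver and 2 in kidney. In the route from tryptophan, Tdo2 was at 854 to 1480 in liver against 0.0688 to 0.885 in kidney and Kynu differed by -4.83 ± 0.33, whereas Acmsd, which diverts that route away from NAD, was at 120 to 185 in kidney and 9.98 to 41.8 in liver (2.95 ± 0.23). Nampt of the salvage route (1.61 ± 0.16, and 0.62 by the median of ratios) and the nicotinamide riboside kinase gene Nmrk1 (1.89 ± 0.17, and 0.90) were higher in kidney. In the mitochondrial carrier gene for NAD, Slc25a51, the difference was 2.01 ± 0.11. Of 35 nudix and decapping genes, 7 were higher in kidney (20%) and 1 in liver (2.86%) beyond 2-fold. Both shares lay below the 30.5% and 5.97% of all tested genes. By the median of ratios the counts were 2 and 1. Nudt7, a peroxisomal hydrolase of coenzyme A, was at 701 to 929 in liver and 10.5 to 19.9 in kidney, and Nudt19, a related peroxisomal hydrolase, at 19.0 to 28.3 and 483 to 704. Nudt12 itself differed by 0.40 ± 0.11 on the per-million scale, which lies at -0.62 relative to the median gene, and by -0.59 by the median of ratios. Blmh, a protease known to bind NUDT12, gave 1.14 ± 0.08 and 0.15. Dxo, another enzyme that takes off NAD caps, gave 0.82 ± 0.15 and -0.16. Neither Blmh nor Dxo passed the test by the median of ratios.

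The organ difference of 1 gene among 19251 (0.00519%) depended on the genotype, as far as the interaction term of the fit could show with 2 wild-type kidneys. Eci3, a peroxisomal enoyl-CoA isomerase of fatty acid oxidation, was at 184, 165 and 163 ppm in the knockout kidneys and 163 and 246 in the wild-type ones. In the livers Eci3 was at 3.88, 4.00 and 7.94 in the knockouts and at 0.117, 0 and 0.0398 in the wild types. The organ difference of Eci3 was thus smaller in the knockout by 5.36 log2 units (interaction -5.36 ± 0.50, limma adjusted p = 0.00931). With a pseudocount of 0.02 or of 1 ppm no gene passed this test, and leaving out 1 library gave between 0 and 6 genes, with 0 without knockout kidney 1, knockout kidney 3 or wild-type kidney 1 and 6 without wild-type kidney 2.

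Of 23 clock genes, 4 were higher in kidney (17.4%) and 1 in liver (4.35%) beyond 2-fold, against 30.5% and 5.97% of all tested genes, and by the median of ratios 1 was higher in each organ. Usp2, a deubiquitinase under clock control, was at 33.8 to 62.1 ppm in kidney and at 1.12 to 15.4 in liver (3.52 ± 0.40), and it spanned 0.595 to 29.7 over the time course livers, below every kidney. Hlf, a clock output factor, differed by 1.92 ± 0.38. Nfil3, a repressor, was at 1.29 to 5.91 in kidney and 4.91 to 32.6 in liver (-2.03 ± 0.25), against 7.14 to 31.7 over the time course. The core gene Arntl was at 1.02, 2.60 and 1.48 in the knockout kidneys and 7.73 and 14.7 in the wild types, and at 0.872, 2.10 and 1.40 in the knockout livers and 9.26, 19.0 and 18.5 in the wild types. The wild types lay above the knockouts in both organs, and the organ difference of Arntl did not pass the test (-0.10 ± 0.33), though by the median of ratios it was higher in liver (-1.05). The time course livers spanned 0.811 to 35.6 for Arntl, and the part of the hour of harvest in these values was not tested.

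Other cell types also differed. Over all tested genes, 5.97% were higher in liver and 30.5% in kidney beyond 2-fold (9.63% and 14.5% by the median of ratios). Among 17 macrophage genes, 10 were higher in liver (58.8%) and 1 in kidney (5.88%) beyond 2-fold. The counts by the median of ratios were 14 and 1. The Kupffer cell genes Clec4f, at 80.7, 106 and 140 ppm in liver and at 0 in 3 of the 5 kidneys, Cd5l (-9.88 ± 0.20) and Vsig4 (-7.66 ± 0.16) were liver genes, whereas Cx3cr1, a receptor of resident macrophages in other organs, was higher in kidney (3.39 ± 0.25) and the shared macrophage gene Csf1r lay at -0.34 ± 0.13. Of 14 endothelial genes, 8 were higher in liver (57.1%) and 1 in kidney (7.14%) beyond 2-fold. The counts by the median of ratios were 10 and 0. Among the liver genes were the sinusoidal genes Clec4g (-8.52 ± 0.23) and Stab2 (69.2 to 141 in liver, 7.09 to 15.1 in kidney). Pecam1 of all endothelium was higher in kidney (1.58 ± 0.18). Of 17 stromal genes, 8 were higher in kidney (47.1%) and 5 in liver (29.4%) beyond 2-fold. The counts by the median of ratios were 5 and 7. Smooth muscle and pericyte genes, Acta2 (3.28 ± 0.32), Myh11 (3.06 ± 0.31) and Pdgfrb (3.02 ± 0.16), lay on the kidney side, and the stellate cell genes Lrat (-2.52 ± 0.24), Reln (-3.75 ± 0.17) and Hand2 (-3.51 ± 0.26) on the liver side. Plasma cell genes were higher in kidney beyond 2-fold for Jchain, Igkc and Igha, but wild-type kidney 1 held most of them, with Igkc at 48.6. These 3 made up 21.4% of their list of 14, below the 30.5% of all tested genes. Their count ranged from 1 to 4 when a library was left out, and it was 0 by the median of ratios.

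**Figure D5:**
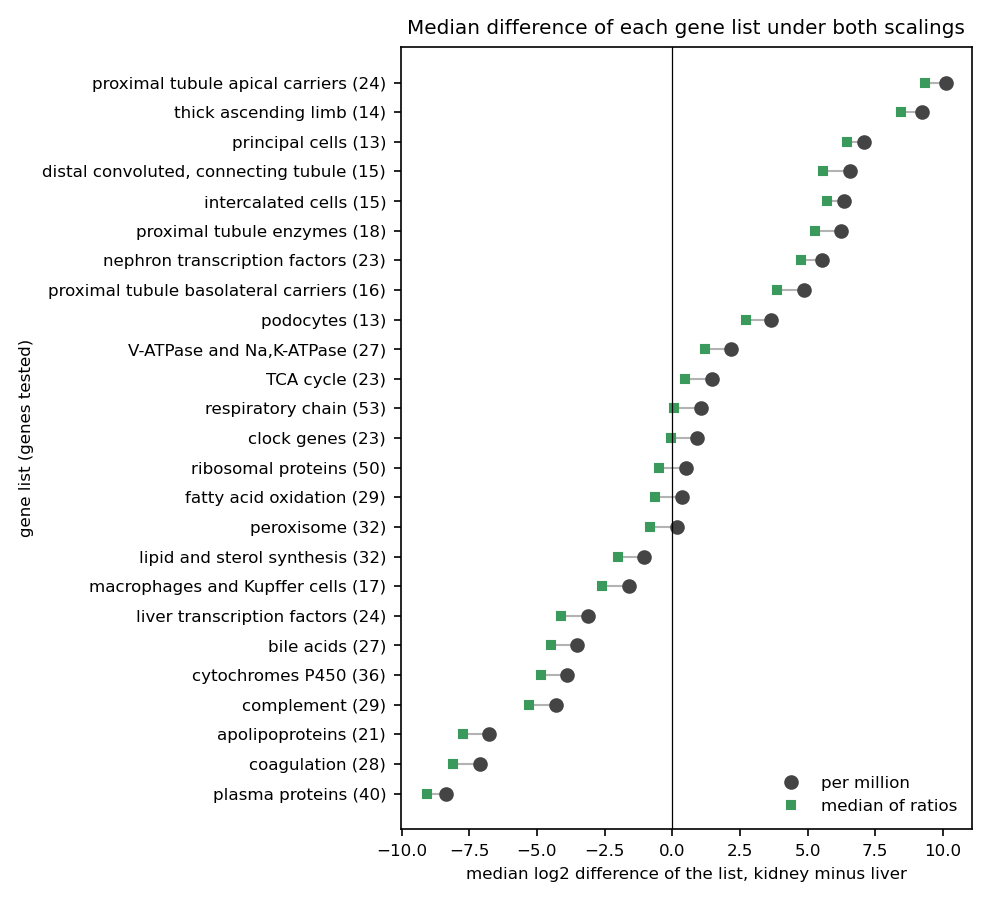
Median log2 difference kidney minus liver (x axis) of 25 gene lists (y axis) on the per-million scale and by the median of ratios, as 2 points for each list. Nephron lists lie far to the kidney side and plasma protein lists far to the liver side under both scales, while lists near the median gene of 1.02 (per-million scale), such as the respiratory chain at 1.07 and 0.08, move to about 0 by the median of ratios.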

How the data were processed

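Total RNA was extracted with Trizol, and 500 ng per sample went into stranded libraries depleted of ribosomal RNA, read as single reads of 100 bases, per the labels' protocols. The authors deposited a signal per gene in each library, which is an estimated count already normalized between the libraries of 1 table, per the file headers. The submitters' processing notes name GRCm38 as the build and, among tools, DESeq2 1.24.0, DESeq, Salmon 0.12.0 and R 3.6.0, without saying what each did. The authors also deposited log2 fold changes and adjusted p-values between genotypes, which were not used here.

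Of the deposited values above 0 and below 20, only 28.6 to 54.6% lay within 0.01 of a whole multiple of the most frequent low value, so tests for counts were not run, and the estimated depth was 23600000 to 28600000 reads for the kidneys and 25000000 to 25700000 for the livers. Each column was divided by its sum and multiplied by 1000000 (ppm). Genes with a mean of at least 0.1 ppm over the 11 libraries were tested on log2(ppm + 0.1) by limma (version 3.58.1, under R 4.3.3), with organ and genotype as terms and a trend in the prior variance, and treat tested against a 2-fold difference. The interaction of organ and genotype was fitted in a second model. Shares of a library were compared by exact permutation in scipy 1.17.1. No separate animals are named by the labels, and no number pairs a kidney with a liver.

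The 57 gene lists, of 1196 genes, and the 28 pairs were chosen with earlier results of these data known. Of the listed genes 4 had no row, 3 were split between identifiers and 24 fell below the filter. Named genes are the 10 largest differences in each direction with no overlap and at least 100 ppm in the higher organ, members of the lists described by role, the pairs, Nudt12, Blmh and Dxo, and genes that passed the interaction test. Some genes of these lists are not reported here. Close copies, such as the Mup, Cyp2c, Ugt1a, Saa and Klk1 families, can share reads. Alternatives in scaling, pseudocount, filter, model and libraries were run, and their effects are given in the closing section.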

Additional observations from a re-analysis of the deposited data

Results flagged for a closer look

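Of 98 sets of values within an organ, 14 held a library whose gap to the rest exceeded Dixon's 95% limit, and chance alone flags about 1 in 20 sets. Wild-type kidney 1 gave 7 of them. Its share of mitochondrially encoded genes, ribosomal RNA included, was 16.06% against 7.40 to 9.54% in the other kidneys. Of its genes, 215 held 50% of the total against 319 to 343. Its mean log2 level was low for fatty acid oxidation (7.212 against 7.364 to 7.399), the respiratory chain (7.367 against 7.560 to 7.635) and NAD genes (4.105 against 4.286 to 4.358). It was high for nephron transcription factors (3.430 against 3.208 to 3.263) and for endothelial genes (2.623 against 2.289 to 2.380).

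Knockout kidney 1 stood at 3.307 for adrenal genes, where the other kidneys lay between -2.929 and -2.594. Knockout kidney 3 stood at 3.505 for pancreas and muscle genes against -1.995 to -1.464, and at 4.069 for intercalated cell genes against 4.289 to 4.372.

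Among livers, knockout liver 1 was high for intercalated cell genes, at -1.216 against -1.863 to -1.737, and wild-type liver 3 low for podocyte genes, at -0.199 against 0.253 to 0.515. Wild-type liver 2 was high for complement genes (7.431 against 7.071 to 7.197) and low for conjugation genes (5.425 against 5.846 to 5.929). The organ difference of Eci3 depended on genotype, with an interaction of -5.36 on the log2 scale.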

How the results depend on the processing

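The number of genes beyond 2-fold was 7024 on the per-million scale, 4540 by the median of ratios, 4383 with quantile normalization, 4811 with a pseudocount of 1 and 4579 with the wild-type libraries only, and leaving out 1 library gave 6555 to 7103. The interaction passed for 1 gene, for 0 with a pseudocount of 0.02 or 1, for 2 with no trend in the prior variance, and for 0 to 6 without 1 library.

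By the median of ratios, list medians turned to the liver side for gluconeogenesis (-0.44), fatty acid oxidation (-0.64), peroxisome (-0.81), ribosomal proteins (-0.48), NAD (-0.57), nudix and decapping (-0.06), clock (-0.05), stroma (-0.13) and lymphocytes (-0.26). With quantile normalization this held for peroxisome (-0.64), ribosomal proteins (-0.05), NAD (-0.37), nudix and decapping (-0.14), clock (-0.02) and lymphocytes (-0.82). The median of adrenal genes was -1.79 in wild types only and -1.5 to 1.4 without 1 library, the lowest without knockout kidney 1. That of pancreas and muscle genes was -1.18 against the time course livers and -0.06 to 1.35 without 1 library, the lowest without knockout kidney 3.

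Named genes that passed the test on the per-million scale and changed direction by the median of ratios were Slc26a1 (-0.48), Hnf4a (-0.14), Nr3c2 (-0.57), Nr1h4 (-0.31), Ass1 (-0.63), Ghr (-0.26), Nudt12 (-0.59), Pex3 (-0.45) and Dxo (-0.16). Pck1 (-0.92), Fbp1 (-0.72), Fh1 (-0.92) and Agtr1a (-0.80) had not passed and now passed toward liver, while G6pc (-0.60) and Kit (-0.18) turned negative without passing on either scale. Slc20a2 (-1.14) and Arntl (-1.05) kept their sign and now passed, and Amacr (0.21), Aadat (0.03) and Blmh (0.15) kept theirs and no longer did. With quantile normalization the genes that had passed and changed direction were Nr3c2 (-0.50), Selenop (0.14), Nudt12 (-0.56), Pex3 (-0.36) and Dxo (-0.29), and against the time course livers Csf1r (0.16) and Pex16 (0.12). The cause of these changes was not tested.

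No paired analysis was possible because no label ties a kidney to a liver of the same animal. With 5 kidneys against 6 livers, the precision rests on few libraries.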

Other observations

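Of 23 genes of iron, heme and metal handling, 6 were higher in liver (26.1%) and 5 in kidney (21.7%) beyond 2-fold, against 5.97% and 30.5% of all tested genes, and by the median of ratios the counts were 9 and 1. Hamp, the iron hormone hepcidin, differed by -8.54 ± 0.43 and Tfr2, an iron sensor of hepatocytes, by -9.15 ± 0.43. Higher in kidney were the transferrin receptor gene Tfrc (1.83 ± 0.21), the iron importer gene Slc11a2 (1.90 ± 0.16) and the ferritin chain gene Fth1 (1.94 ± 0.21), which lay at 0.84, 0.91 and 0.95 by the median of ratios and did not pass the 2-fold test there. Of the zinc and manganese carrier genes, Slc39a5 differed by 5.98 ± 0.27 and Slc30a10 by -8.23 ± 0.26.

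Genes of ribosomal proteins lay below the median gene: 41 of 50 passed the test toward kidney with a median of 0.51, but by the median of ratios 39 passed toward liver with a median of -0.48. Of 107 snoRNA genes, 40 passed the test toward liver (37.4%) and 13 toward kidney (12.1%), against 10.8% and 70.4% of all tested genes, with a median of -0.35. Of 949 lincRNA genes, 227 were higher in kidney (23.9%) and 86 in liver (9.06%) beyond 2-fold, against 30.5% and 5.97% of all tested genes, and their median of 0.97 was close to the 1.02 of all tested genes.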
